A study of Homo sapiens with 6 samples.

Results

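The 2′,5′-oligoadenylate synthetase (OAS) family was examined in AGS, an established line of human gastric adenocarcinoma cells. The cells had been transfected 48 h earlier with si-C1GALT1-3, an siRNA against C1GALT1, or with the non-targeting si-control. C1GALT1 is the galactosyltransferase that makes the core 1 O-glycan. The family comprises OAS1, OAS2, OAS3 and OASL, which are 4 of the 22438 genes with a named probe on the Agilent arrays. All probes whose RefSeq accession belonged to these genes were taken, 7 of the 31101 named probes tested. Both groups had 3 samples in 10% FBS/RPMI1640, each on its own one-colour array. Samples with the same replicate number shared a slide, where si-control always took column 1 and si-C1GALT1-3 column 2. Position on the slide and treatment therefore cannot be told apart. A single siRNA was used, so effects of its sequence and of the loss of C1GALT1 cannot be told apart either. Both groups received a double-stranded siRNA, and untransfected cells were not analysed here. Nothing in the labels says whether the samples were separate cultures, so the p-values measure the spread between these samples, which may be technical.

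OAS proteins are sensors of double-stranded RNA. On binding it, OAS1, OAS2 and OAS3 join ATP into 2′,5′-linked oligoadenylates (2-5A), a second messenger of the antiviral response that leads to the cutting of RNA. OAS1 carries a single synthetase unit, OAS2 a pair and OAS3 more. OASL shares the fold but lacks the synthetase activity, and its ubiquitin-like tail is known to assist the RNA sensor RIG-I. All of them are known interferon-stimulated genes.

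In the RefSeq annotation of GRCh38.p14, OAS1, OAS3 and OAS2 follow each other on chromosome 12 with no other protein-coding gene between them, and OASL lies elsewhere on that chromosome. RefSeq promoters were matched for OAS1 and OAS3, and not for OAS2 or OASL. The 250 bases before both starts are shown because OAS1 passed the threshold given further on and OAS3 did not. The tests given there do not settle whether the changes of these neighbours differ. A link between these sequences and the changes was not tested. The start of OAS1 is preceded by chr12:112906712-112906961 and that of OAS3 by chr12:112938224-112938473, both on the plus strand of GRCh38.p14. Capitals mark matches to AANNGAAA, the core bound by interferon regulatory factors, searched on both strands and found on the strand shown.
OAS1: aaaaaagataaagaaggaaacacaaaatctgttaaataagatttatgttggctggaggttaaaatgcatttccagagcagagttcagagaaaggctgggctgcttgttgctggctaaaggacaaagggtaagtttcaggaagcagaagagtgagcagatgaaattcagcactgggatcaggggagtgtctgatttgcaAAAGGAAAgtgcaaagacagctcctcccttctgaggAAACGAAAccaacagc
OAS3: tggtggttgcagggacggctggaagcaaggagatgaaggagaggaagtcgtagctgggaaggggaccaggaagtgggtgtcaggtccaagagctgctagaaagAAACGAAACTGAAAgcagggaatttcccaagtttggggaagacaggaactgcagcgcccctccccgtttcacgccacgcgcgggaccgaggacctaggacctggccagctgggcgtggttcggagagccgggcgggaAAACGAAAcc
The OAS1 window held the core at positions -52 to -45 and -16 to -9, counted from the start. The OAS3 window held it at -147 to -140, at -141 to -134, overlapping the former by 2 bases, and at -10 to -3. Of 35116 RefSeq promoters, 20.3% held AANNGAAA in a window of this length. The longer core of the interferon-stimulated response element, GAAA repeated after 2 bases of any kind, contains the shorter motif and was found in 3.02% of them. It occurred in the OAS3 window at -143 to -134 and at -12 to -3, and this spacing was not in the OAS1 window. In the OAS1 window the match at -16 to -9 is preceded by a g, so GAAA repeats there with a single base between. The motifs were chosen after these sequences had been seen. A match describes the letters only.

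On si-control replicate 2 a rectangle of 9712 gene spots was dim, and its spots were left out. Set against the mean of the remaining si-control arrays, the median log2 difference was -2.19 within the rectangle and -0.06 elsewhere. The share of gene spots well above background, the rectangle included, was 66.2% to 72.7%. The lowest was that of si-control replicate 2, which had 71.9% outside the rectangle. With 3 arrays a group, their number limits the precision. The 4 epithelial markers EPCAM, KRT8, KRT18 and KRT19 were well above background on each of the 6 arrays. Of 4 leukocyte markers 3 were well above background on each, PTPRC among them, and none passed the threshold used below. Their summed signal ranged from 12897 to 21142 on si-control arrays and from 12452 to 13925 on si-C1GALT1-3 arrays. All 3 fibroblast markers and 1 of 2 endothelial markers were well above background wherever measured, and none passed. Over arrays with every marker of the list measured, the summed fibroblast signal was 10861 to 13004 on si-control and 7616 to 8884 on si-C1GALT1-3 arrays, and the endothelial signal 832 to 1184 and 442 to 635 respectively. Both sums were lower in si-C1GALT1-3 cells, but the fibroblast markers did not move together, with log2 fold changes of -0.81 for PDGFRB, -0.05 for COL1A1 and 1.17 for COL3A1. The part of these markers in the results was not tested. AGS is an established line, so these signals are not read as numbers of leukocytes, fibroblasts or endothelial cells. Their source was not tested. C1GALT1 itself had log2 signals of 12.22, 13.03 and 12.62 in si-control and of 11.76, 11.98 and 11.13 in si-C1GALT1-3 cells. These groups did not overlap, and its log2 fold change of -1.0003 (standard error, SE, 0.31; adjusted p = 0.265 in limma) did not pass the threshold. On the 3 slides its difference was -0.47, -1.05 and -1.49.

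OAS1 and OAS2 rose in si-C1GALT1-3 cells, while OAS3 and OASL did not pass the threshold. Values below are quantile-normalized log2 signals, and the threshold was p under 0.01 in limma together with a difference of at least 2-fold. Of the 7 OAS probes, 4 were called higher and 0 lower, against 1.65% of all 58195 probes called higher, 0.991% called lower and 2.64% called in either direction. The same 4 probes had si-C1GALT1-3 values that all lay above the si-control values, which held for 11% of all probes, while 10.4% of all probes lay wholly below. The median log2 fold change of the 7 probes was 1.54, against -0.0048 for all probes tested. With 1 probe a gene, that of the highest mean signal, the median of the 4 genes was 1.15. Read this way, 2 of the 4 genes, OAS1 and OAS2, were called higher, against 2.08% of all named genes. In the plot of signals by array, the separation of the groups can be read for each probe.

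**Figure D1:**
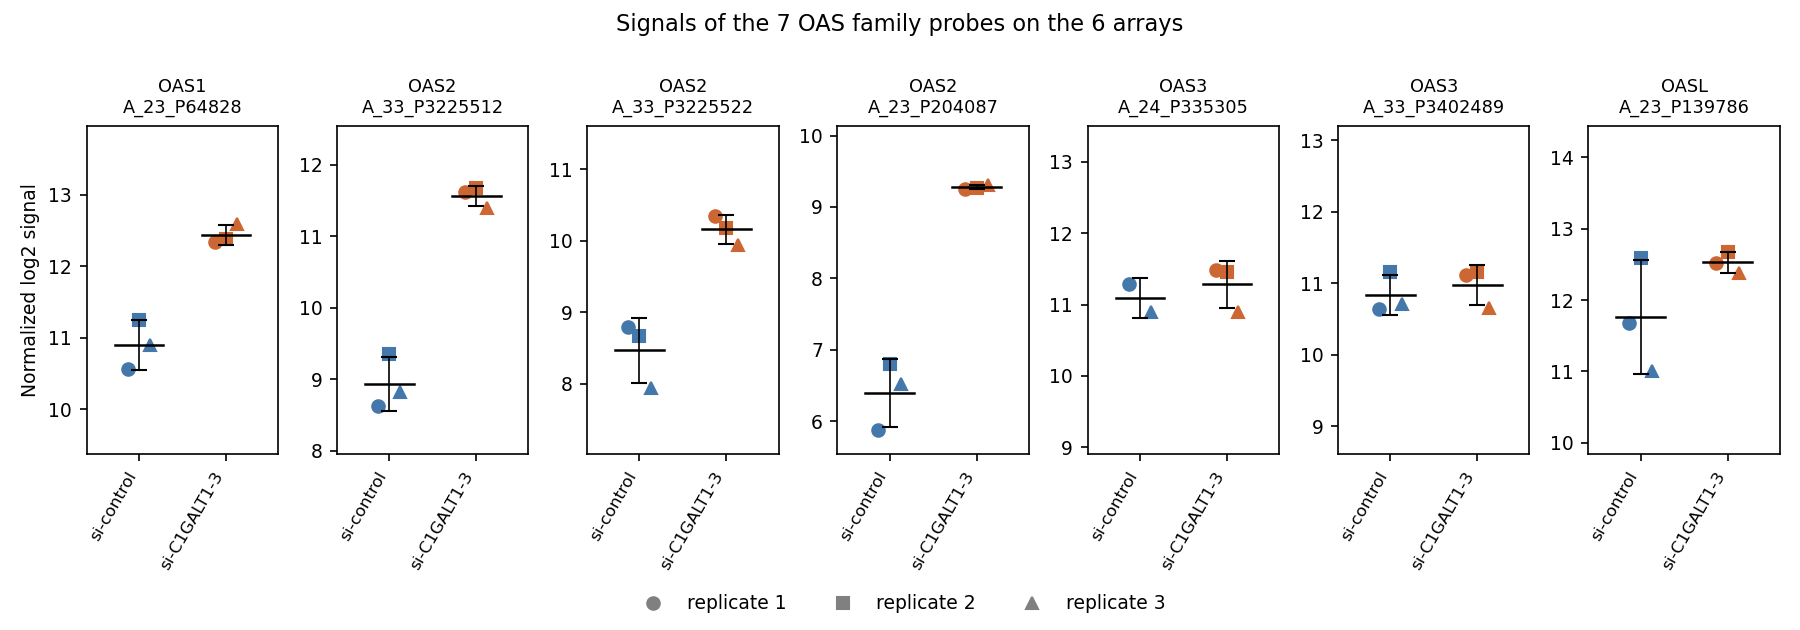
Normalized log2 signal (vertical axis) of each of the 7 OAS family probes, 1 panel a probe, in si-control (blue) and si-C1GALT1-3 (orange) cells. Points are arrays, shaped by replicate number, the long bar is the group mean and the error bar the SD. Every panel spans the same log2 range but has its own centre, since levels of different probes cannot be compared. The groups separate in the OAS1 panel and the 3 OAS2 panels and overlap for OAS3 and OASL, where si-control replicate 2 lay at 12.59.

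OAS2, the synthetase with paired units, rose on all its 3 probes. On A_33_P3225512 (NM_002535), its brightest probe, the normalized log2 signal was 8.62, 9.35 and 8.82 in si-control replicates 1, 2 and 3. It was 11.63, 11.67 and 11.40 in the si-C1GALT1-3 replicates. Every si-C1GALT1-3 array thus lay above every si-control array, and the gap between the groups was wider than the spread within either. The log2 fold change was 2.63 (SE 0.23, 95% interval 2.07 to 3.19), a 6.20-fold rise. Within the slides the difference was 3.01, 2.32 and 2.58.

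The second OAS2 probe, A_23_P204087 (NM_016817), had log2 signals of 5.87, 6.80 and 6.52 in si-control and of 9.25, 9.27 and 9.31 in si-C1GALT1-3 cells. Of its si-control spots, 2 were well above background, so its fold is measured against signals near background. The si-C1GALT1-3 arrays were nearly level with each other, and the si-control arrays spread widely (SD 0.031 and 0.476, n = 3 each). Its log2 fold change was 2.88 (SE 0.26).

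The third OAS2 probe, A_33_P3225522 (NM_001032731), had log2 signals of 8.79, 8.67 and 7.94 in si-control cells and of 10.35, 10.18 and 9.95 in si-C1GALT1-3 cells. The groups did not overlap on it either. Its log2 fold change was 1.69 (SE 0.27), which is 0.94 less than on A_33_P3225512 and 1.19 less than on A_23_P204087. In an exact two-sided permutation test over the arrays both differences between probes had p = 0.1, the smallest that 3 against 3 arrays allow, and 0.15 after Benjamini-Hochberg adjustment over the 3 probe pairs. The difference of -0.25 between A_33_P3225512 and A_23_P204087 had an exact p of 0.3. With normexp background correction the log2 fold change of A_23_P204087 was 1.97, below the 2.41 of A_33_P3225512 and closer than above to the 1.5003 of A_33_P3225522.

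Adjusted over all probes (Benjamini-Hochberg, limma), the p of A_33_P3225512 and A_23_P204087 was 0.0499 and that of A_33_P3225522 was 0.107. Of all probes tested, 0.0842% had an adjusted p under 0.05, 0.0584% being higher in si-C1GALT1-3 cells. That side of 0.05 depended on the processing. For A_33_P3225512 the adjusted p was 0.0503 with outlier spots kept, 0.246 with the low-signal region kept and 0.180 with the replicate as a block, and it ranged from 0.00798 to 0.323 over the alternatives. The threshold of p under 0.01 and 2-fold was passed by all 3 OAS2 probes under every alternative run.

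OAS1, the smallest synthetase, was represented by A_23_P64828 (NM_002534). Its log2 signal was 10.56, 11.25 and 10.90 in si-control cells and 12.34, 12.38 and 12.59 in si-C1GALT1-3 cells. The lowest si-C1GALT1-3 array was 1.09 above the highest si-control array. The log2 fold change was 1.54 (SE 0.21, 95% interval 1.01 to 2.06), a 2.90-fold rise, with an adjusted p of 0.091 in limma. The slides gave 1.78, 1.13 and 1.70. Leaving out each array gave log2 fold changes between 1.37 and 1.72, and the adjusted p ranged from 0.0278 to 0.334 over the alternatives.

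OAS3, the largest synthetase and the member known to need the longest double-stranded RNA, had 2 probes, and neither passed the threshold. A_24_P335305 (NM_006187) lies in the low-signal region, so its si-control value rests on replicates 1 and 3, with log2 signals of 11.29 and 10.89. In si-C1GALT1-3 cells it had 11.49, 11.46 and 10.90. The log2 fold change was 0.20 (SE 0.27, 95% interval -0.51 to 0.90). A_33_P3402489 (NM_006187), outside the region, had 10.65, 11.16 and 10.71 in si-control and 11.11, 11.16 and 10.66 in si-C1GALT1-3 cells. Its groups overlapped fully, with a log2 fold change of 0.14 (SE 0.22, 95% interval -0.41 to 0.68). The upper ends of the intervals correspond to rises of 1.87-fold and 1.61-fold, both short of 2-fold. The adjusted p of 0.816 and 0.854 in limma do not show that OAS3 was level.

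The omitted spot matters for OAS3. With it kept, A_24_P335305 had a log2 fold change of 0.82 (SE 0.58), while A_33_P3402489 had 0.03. On the array of si-control replicate 2 the processed signal of A_24_P335305 was 411 intensity units, against 3036 and 1462 in si-control replicates 1 and 3. The other OAS3 probe had 2141 on that array, the highest of the 3 si-control arrays.

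**Figure D2:**
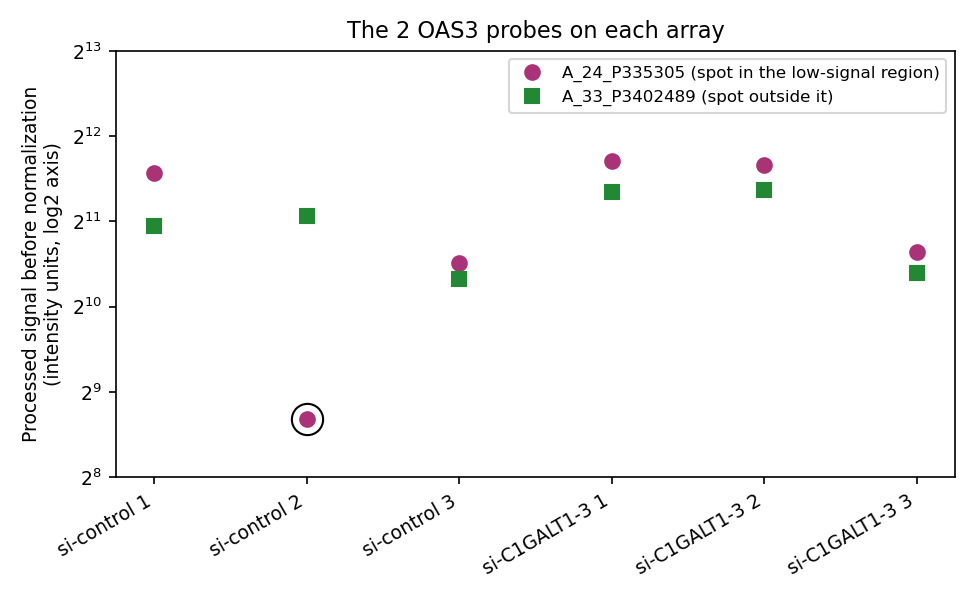
Processed signal before normalization (vertical axis, intensity units on a log2 axis) of the 2 OAS3 probes on each of the 6 arrays, named by group and replicate number. The ring marks the spot left out, which read 411 on si-control replicate 2, where the probe outside the low-signal region read 2141.

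OASL, the member without synthetase activity, was represented by A_23_P139786 (NM_003733). Its log2 signal was 11.68, 12.59 and 11.00 in si-control cells and 12.52, 12.68 and 12.37 in si-C1GALT1-3 cells. The si-C1GALT1-3 arrays lay close together, and si-control replicate 2 lay among them. The log2 fold change of 0.77 (SE 0.41, 95% interval -0.24 to 1.78) did not pass, with an adjusted p of 0.477 in limma. Within the slides the difference was 0.84, 0.09 and 1.37. With si-control replicate 2 left out it was 1.19, which passed the threshold, with an adjusted p of 0.214 in limma. Over the alternatives that adjusted p ranged from 0.214 to 0.885. Without si-control replicate 3 it was 0.38. The spot of OASL lies outside the low-signal region, and si-control replicate 2 also had the highest si-control value for OAS1, for 2 of the 3 OAS2 probes and for the OAS3 probe measured there.

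Whether the members differed in their change was tested on the per-array difference between the log2 signals of 2 probes, for 6 pairs of genes. On A_33_P3225512, OAS2 changed by 1.09 more than OAS1 (SE 0.17) and by 1.86 more than OASL (SE 0.33), and in both pairs the groups did not overlap. The exact two-sided permutation p was 0.1 for both, the smallest possible with 3 against 3 arrays. The difference between OAS2 and OAS1 depended on the OAS2 probe. On A_23_P204087 it was 1.34 (SE 0.11, exact p = 0.1), and on A_33_P3225522 it was 0.15 (SE 0.40, exact p = 0.8). Against OASL these probes gave 2.11 and 0.92. Against A_24_P335305 of OAS3, measured on 2 si-control arrays, OAS2 changed by 2.65 more, OAS1 by 1.52 more and OASL by 0.99 more, each with the smallest exact p possible there, 0.2. With A_33_P3402489 in its place, on all 6 arrays, the 3 differences were 2.50, 1.40 and 0.63, with exact p of 0.1, 0.1 and 0.2. OAS1 and OASL differed by 0.77 (SE 0.41, exact p = 0.3). After Benjamini-Hochberg adjustment over the 6 pairs no p was under 0.15 with either OAS3 probe. An exact permutation test on this number of arrays cannot reach 0.05, whatever the size of the difference.

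The genes on either side of the cluster were read for comparison and were chosen by position after the members' values were known. RPH3A and DTX1, the nearest protein-coding genes with a probe on either side of OAS1, OAS3 and OAS2, had log2 fold changes of 0.16 (SE 0.23) and 0.08 (SE 0.23). Neither passed the threshold in limma.

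The 3 regulators of the 2-5A response that were read, ABCE1, PDE12 and AKAP7, did not pass. ABCE1, a ribosome-recycling ATPase also described as an inhibitor of the 2-5A response, had a log2 fold change of -0.44 (SE 0.19), and its groups overlapped. A second ABCE1 probe, A_32_P108474, had -0.67 (SE 0.22) with groups that did not overlap, and did not pass either. PDE12, a phosphodiesterase that degrades 2-5A, had 1.17 (SE 0.64). Its log2 signal of 7.47 in si-control replicate 2 lay well below the 9.33 and 9.94 of the other si-control arrays. AKAP7, an anchoring protein with a domain that cuts 2-5A, was well above background on 0 of 6 arrays.

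A list of 26 genes around 2-5A was read beside the family, with 1 probe a gene. It held these 3 regulators, 9 double-stranded RNA binding proteins, 3 genes for the related sensor cGAS and for adaptors of nucleic acid sensing, and 11 inducers of the family. In limma 2 of the 26 were called higher and 0 lower, against 2.08% and 1.33% of all named genes. The list had 20 positive and 6 negative log2 fold changes, with a median of 0.36, against -0.0048 over all probes tested. In it, 12 genes had si-C1GALT1-3 values all above their si-control values, against 14% of all named genes. Another 4, PRKRA, DICER1, CGAS and JAK1, lay wholly below, as did 10.4% of all probes. Of the genes of the list, 4 (ZBP1, IFNL1, IRF3 and IRF7) were measured on 2 si-control arrays. The study's gene lists from these same arrays include TLR3, IFNB1, IRF1, STAT2 and STING1, as well as OAS1, OAS2 and OASL. Calls of these genes are therefore not independent evidence. IRF1, STAT2, STING1 and OASL are in the study's lists but did not pass the threshold here. The study also states that quantitative RT-PCR of selected genes, in 3 independent experiments, bore out the array differences. Its primers include a pair for OAS2, whose RT-PCR values were not read here.

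Among the double-stranded RNA binding proteins, TLR3, the receptor of endosomes, was the only call. Its log2 signal was 6.20, 5.98 and 6.23 in si-control and 7.97, 8.01 and 8.30 in si-C1GALT1-3 cells, with no overlap. The log2 fold change was 1.95 (SE 0.16), with an adjusted p of 0.0499 in limma, or 0.246 with the low-signal region kept. The cytosolic sensors RIGI, IFIH1 and DHX58 had 0.25, 0.98 and 0.66 and did not pass. A second RIGI probe, A_33_P3418170, passed with 1.00 (SE 0.19), so the probes of that gene disagree. PRKRA and DICER1 had -0.57 and -0.45, and neither passed.

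Among the inducers, IFNB1, which encodes interferon beta, was the only call. Its log2 signal was 6.94, 6.96 and 7.11 in si-control and 8.83, 8.09 and 8.55 in si-C1GALT1-3 cells. The groups did not overlap, with a log2 fold change of 1.49 (SE 0.22, adjusted p = 0.096 in limma). STAT2 and IRF9, subunits of the factor that binds the interferon-stimulated response element, had 0.86 and 0.77. Neither passed 2-fold, although their si-C1GALT1-3 values all lay above their si-control values. In all, 10 of the 11 inducers had a positive log2 fold change, where the median over all probes tested was -0.0048. The share of positive changes among all named genes was not read. The 10 include IFNAR2 at 0.03 (SE 0.28), whose other probes disagree. They had 1.01 (A_23_P211080, SE 0.29, 2 si-control arrays) and -0.38 (A_33_P3337540, SE 0.17), and neither passed. In the positive direction 7 inducers did not overlap, against 14% of all named genes. These 7 include IRF3 and IRF7, measured on 2 si-control arrays, where groups separate more easily. JAK1 had -0.59. Of the remaining group, CGAS, which makes a cyclic dinucleotide, had -0.74, its adaptor STING1 1.25, and MAVS, the adaptor of RIG-I, 0.08, and none passed. Other MAVS probes had 0.74 (A_19_P00319465, SE 0.29), 0.50 (A_33_P3244021, SE 0.21) and -0.01 (A_33_P3244026, SE 0.31), and none of them passed. STING1 passed with the replicate as a block (SE 0.15), with normexp, with dim probes left out and without si-C1GALT1-3 replicate 3.

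**Figure D3:**
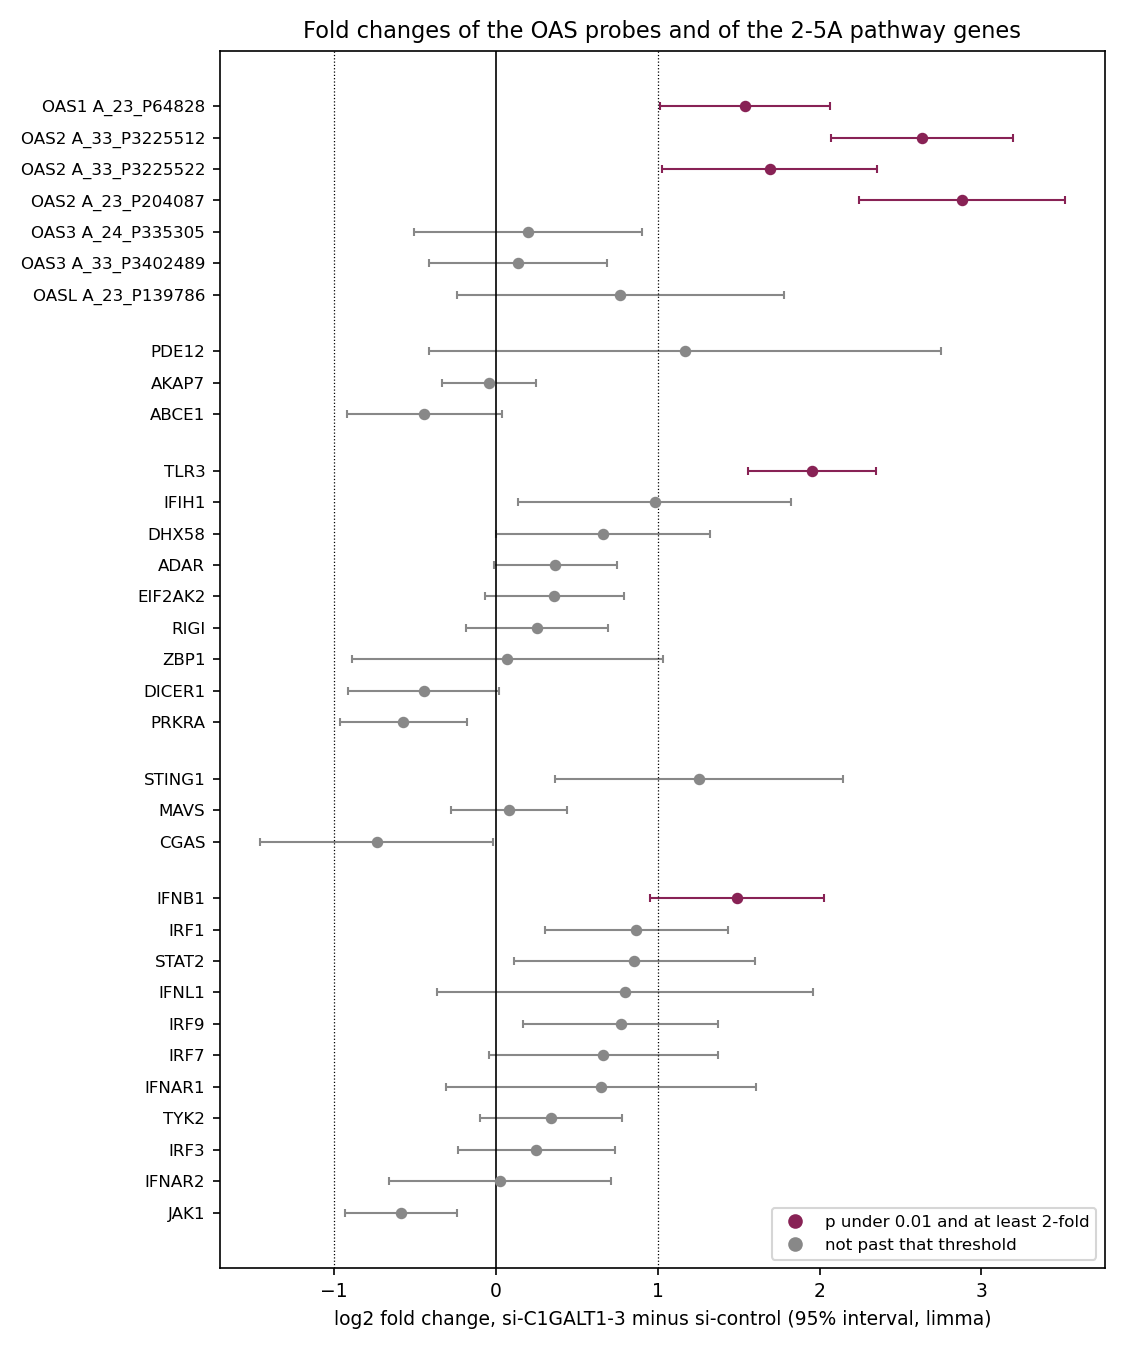
Log2 fold change, si-C1GALT1-3 minus si-control (horizontal axis), with the 95% interval from limma, for the 7 OAS probes and, below them, the 26 pathway genes by group in the order 2-5A regulators, double-stranded RNA binding, cGAS and adaptors, inducers. Dotted lines mark a 2-fold change. The intervals of OAS1 and of the 3 OAS2 probes lie above 1.01, those of OAS3 and OASL include 0, and TLR3 and IFNB1 are the pathway genes past the threshold.

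The genes whose signals across the arrays were most like each member's were taken from 8773 probes of other genes, as a description without a test. For OAS1 over 6 arrays these were ZNFX1, GCH1 and SLC11A2 (Pearson's r between 0.997 and 0.998), with log2 fold changes of 1.19, 1.73 and 1.26. For OAS2 they were MTHFSD, ANXA9 and SLC11A2 (r between 0.998 and 0.999), with 1.097, 2.48 and 1.77. SLC11A2 was the gene that both lists shared, through different probes. For OAS3, over 5 arrays, they were HLA-DPB2, VAMP4 and LARP7 (r between 0.996 and 0.999), with log2 fold changes of 0.23, 0.12 and 0.21. For OASL, over 6 arrays, they included SLC2A1-DT and PRDM16-DT (r of 0.997 and 0.989), with 0.75 and 0.51. With so few arrays in 2 groups, such r values arise for any probes that separate the groups alike or share the deviation of an array.

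Over the alternatives run, log2 fold changes lay between 2.41 and 2.86 on the brightest OAS2 probe, A_33_P3225512, and between 1.37 and 1.72 for OAS1. The other OAS2 probes ranged from 1.97 to 3.10 (A_23_P204087) and from 1.42 to 1.87 (A_33_P3225522), the last overlapping the range of OAS1. OASL ranged from 0.38 to 1.19 and OAS3 from -0.0029 to 0.82. The plot of fold changes by processing shows these ranges side by side.

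**Figure D4:**
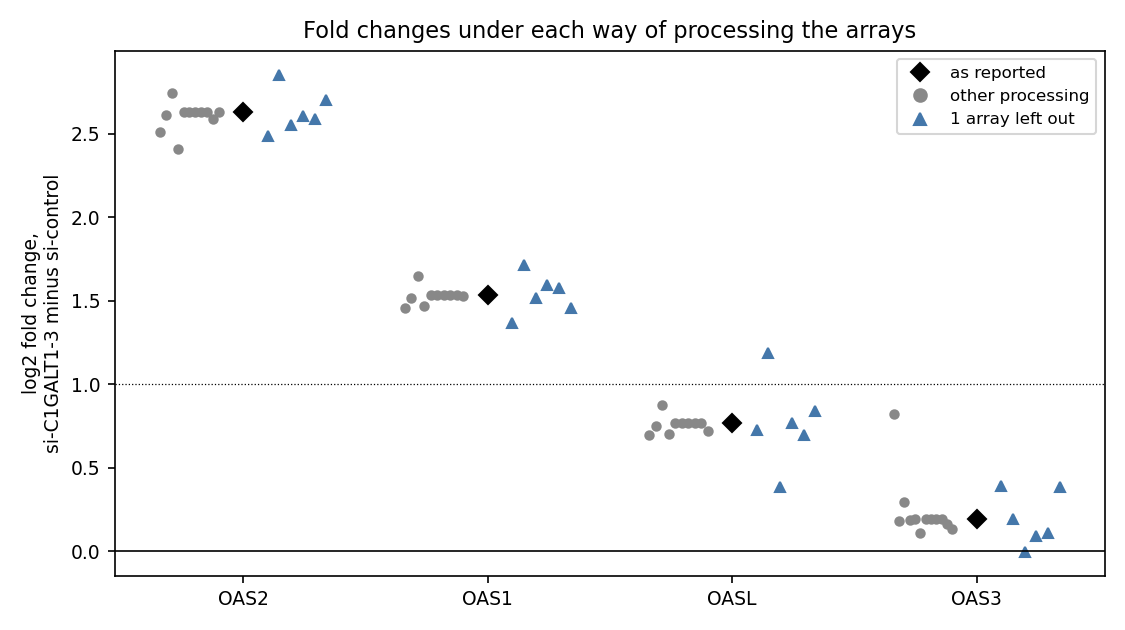
Log2 fold change (vertical axis) of OAS2 (A_33_P3225512), OAS1, OASL and OAS3 as reported (black diamonds), under other ways of processing (grey circles) and with 1 array left out (blue triangles). The dotted line marks 2-fold. OAS2 and OAS1 stay above it in each case, OASL crosses it at 1.19 without si-control replicate 2, and the highest OAS3 point, 0.82, is that with the low-signal region kept.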

How the data were processed

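Each sample was hybridized to a one-colour Agilent array, and the deposited values are the fluorescence intensity of each spot from Feature Extraction 10.5.1.1, corrected for background and trends within the array by that software. The authors normalized between arrays and ran limma after this stage. A deposited series table gives the same spots as intensity less background. Here log2 processed signals of 60901 gene spots were used, spots marked as non-uniform or population outliers (100 to 424 per array) were set to missing, spots of the low-signal region of si-control replicate 2 were left out, and the arrays were quantile normalized. Groups were compared with limma 3.58.1 in R 4.3.3, without a filter on dim probes and with Benjamini-Hochberg adjustment over all probes.

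Probes were named by RefSeq accession through GRCh38.p14, 1 symbol for 31104 probes and none for 27097. The files name another build (hg19), so no probe coordinates are given. A gene with several probes was read from that with the highest mean, and all OAS probes are given. Named genes are the 4 members, C1GALT1, the regulators of the 2-5A response, pathway genes past the threshold, and the 3 genes most correlated with each member, among probes well above background on all arrays of a group, measured on 6 arrays and ranging over at least 1 on the log2 scale. Other genes were named after their values were seen, and some genes of these lists are not reported here. Cell type markers were EPCAM, KRT8, KRT18 and KRT19 (epithelium), PTPRC, CD3E, CD14 and ITGAM (leukocytes), COL1A1, COL3A1 and PDGFRB (fibroblasts), and PECAM1 and VWF (endothelium). Members, lists and the masked region were chosen with earlier results of these data known. Replicates of the same number shared a slide by the file headers. Deviations from the group means correlated by 0.198, 0.215 and 0.329 within slides 1, 2 and 3. The replicate number was therefore taken to pair the samples in the replicate block, which is an alternative fit. The reported limma fit and the permutation tests did not use the pairing, so their SE and p-values leave it out. The fit was tested on simulated data.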

Additional observations from a re-analysis of the deposited data

How the results depend on the processing

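OAS1, OAS2 and the count of OAS probes called higher (4, or 5 without si-control replicate 2) kept direction and side of the threshold throughout. The alternatives included 75th-percentile scaling, normexp on the median spot signal (the mean is not used here) and Student's t-test in place of limma. The series table and each array left out were others. With the replicate block 4 OAS probes passed, no call of a member changed, and 3 pathway genes passed, STING1 being added. OAS3 had -0.0029 without si-control replicate 3, and ranged from -0.0029 to 0.39 with arrays left out. OASL had 0.38 to 1.19 with arrays left out, the latter past the threshold. C1GALT1 passed with dim probes left out (-1.0003, adjusted p = 0.151), where fewer probes were tested. The pathway genes called, 2 as reported, were 4 with normexp and 2 to 4 with arrays left out, the 4 being without si-control replicate 2, where IRF1 and STAT2 also passed. All probes called, 1538 as reported, were 920 with normexp and 896 with Student's t-test. The OASL minus OAS3 difference turned to -0.13 with the low-signal region kept, an alternative added after seeing the data, as were the other OAS2 and OAS3 probes and the other reruns of the differences between members. Unless stated, the cause was not tested. Of the called probes 961 were higher and 577 lower, against 474 and 706 with the low-signal region kept, 783 and 295 with no normalization between arrays and 838 and 768 without si-control replicate 1. The 75th percentile moved the median of all probes to -0.11.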
